A study of Mus musculus with 4 samples.

Results

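The proteasome subunit genes were described in NIH3T3, an established line of mouse fibroblasts that had received an siRNA against Timp1 (siTIMP1) or a control siRNA (siControl). The Timp1 protein is secreted and inhibits matrix metalloproteinases. Both siRNAs were delivered with apatite nanoparticles, which the labels abbreviate sCA, and all cells were kept in 2% fetal calf serum. There were 4 Agilent 1-colour arrays, 2 of siTIMP1 and 2 of siControl, and the labels give no time after transfection and no separate cultures. The p-values therefore measure how far these samples varied, and that variation may be technical.

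Genes were taken when their name on the array started with Psma, Psmb, Psmc or Psmd and a digit, or was Psme1 to Psme4. The inducible subunits Psmb8 and Psmb9 were left out. This gave 78 probes of 56605, and 41 genes. To be tested, a probe had to stand well above background on both siTIMP1 arrays or both siControl arrays, as 70 of these 78 probes and 26015 of all probes did. They represented 39 of the 41 genes, among 17734 genes tested, and each gene was represented by its probe of highest signal. That probe was well above background on all 4 arrays for each of the 39 genes, so none was tested through 1 group alone. The genes not tested were Psma8, a core subunit made in the testis, and Psmb11, one made in the thymic cortex, and neither was above background on any array. No gene named Psme2 was analysed here. One of the 39, Psmc3ip, encodes a recombination factor and not a subunit of the complex, and it is given apart from the other 38.

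The proteasome degrades proteins that carry ubiquitin chains. Its core particle is a barrel of outer alpha rings and inner beta rings, with the proteolytic sites on the inner face of the beta rings. A regulatory cap on either end recognises the ubiquitin chain, removes it, unfolds the protein with a ring of ATPases (the base) and feeds it into the barrel, and a second module of the cap (the lid) holds the deubiquitinase. Chaperones assemble the base, and alternative caps open the barrel without ubiquitin. When proteasome activity falls short, the transcription factor Nfe2l1, and under oxidative stress its relative Nfe2l2, are known to raise subunit transcription through the antioxidant response element.

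The letters TGACNNNGC, the core of that element, were searched on both strands in the 250 bases before the start of each gene, since shared promoter letters bear on whether the subunits are read together. RefSeq promoters (GRCm38.p6) were matched for 33 of the 40 proteasome genes. The element was found in 5 of the 33 (15.2%), against 11.52% of the promoters of 27025 genes. The 5 were Psmb5, Psmb6, Psmc6, Psmd12 and Psmd9. The element lay close to the start in 3 of them, 47 bases before it in Psmb5, 9 in Psmb6 and 31 in Psmd9, and these promoters are shown 5′ to 3′ with the element in capitals.
Psmb5, chr14:54617996-54618245, minus strand: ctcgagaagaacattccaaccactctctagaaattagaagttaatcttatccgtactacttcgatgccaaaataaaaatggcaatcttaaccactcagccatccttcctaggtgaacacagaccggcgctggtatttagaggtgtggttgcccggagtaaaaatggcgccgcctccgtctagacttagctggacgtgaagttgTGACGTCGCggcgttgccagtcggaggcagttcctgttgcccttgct
Psmb6, chr11:70525107-70525356, plus strand: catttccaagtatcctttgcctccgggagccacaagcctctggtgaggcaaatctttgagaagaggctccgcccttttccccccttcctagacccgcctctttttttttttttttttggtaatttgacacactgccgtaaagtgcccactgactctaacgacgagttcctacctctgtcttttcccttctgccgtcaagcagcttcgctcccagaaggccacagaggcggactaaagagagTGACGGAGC
Psmd9, chr5:123227940-123228189, plus strand: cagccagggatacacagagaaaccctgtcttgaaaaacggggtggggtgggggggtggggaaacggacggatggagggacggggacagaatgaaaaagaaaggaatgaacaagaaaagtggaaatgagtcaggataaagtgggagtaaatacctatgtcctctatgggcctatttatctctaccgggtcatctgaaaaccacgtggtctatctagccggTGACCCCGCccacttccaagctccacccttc
In Psmc6 and Psmd12 the match lay 227 and 247 bases before the start. The CCAAT box (CCAAT, both strands) was in 13 of the 33 promoters (39.4%), against 37.5% of all promoters. The core of the ETS site (CCGGAAG, both strands) was in 11 of the 33 (33.3%), against 7.83% of all promoters. All promoters here are those of the 27025 genes, expressed or not, and the shares among genes of similar signal were not measured. None of the 3 motifs contains another on either strand, and a match is a description of the letters, not a site.

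Timp1, the targeted gene, had a log2 fold change of -5.22 (SE 0.158, limma adjusted p = 0.0105). Its processed signals were 1840 and 1492 on the siTIMP1 arrays, against 53297 and 67559 on the siControl arrays, which left 2.68% of the siControl level. The labels name both the line NIH3T3 and dermal fibroblasts, and 10 of 10 fibroblast markers were above background on every array. Of other cell types, 2 of 6 keratinocyte markers (Krt14 and Krt10), 4 of 6 macrophage markers (Ptprc, Csf1r, Cd14 and Itgam) and 1 of 5 endothelial markers (Vwf) were above background on all 4 arrays. Krt5, Krt1, Cdh1, Epcam, Adgre1, Lyz2, Cdh5, Kdr and Tek were above background on none, and Pecam1 on at most 2. The summed signal of the macrophage list, in units of each array's 75th percentile, was 16.5 and 15.2 in siTIMP1 and 18.4 and 18.7 in siControl. Those of the keratinocyte list were 2.76 and 2.57 in siTIMP1 and 2.27 and 2.78 in siControl, those of the endothelial list 0.207 and 0.190 in siTIMP1 and 0.130 and 0.187 in siControl, and their part in the results was not tested. All 4 arrays lay on 1 slide, with siTIMP1 at positions 3 and 4 and siControl at positions 1 and 2, so position and group cannot be told apart.

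No proteasome gene was called higher or lower between siTIMP1 and siControl. Each gene has a normalised log2 signal, which is the log2 processed signal relative to the 75th percentile of its array, and fold changes are siTIMP1 over siControl on that scale. At a limma adjusted p under 0.05, 0 of 38 genes were higher, where 0.0846% of all genes were, and 0 of 38 were lower, where 0.699% of all genes were. The lowest adjusted p of a proteasome gene was 0.162, for Psmb2. At an unadjusted p under 0.05, 8 of 38 were higher, against 11.8% of all genes, and 0 of 38 lower, against 7.98%. All 38 had a signal above the median gene's, and over such brighter genes the median SE was 0.083, against 0.118 over all genes. The share past this threshold among the brighter genes was not measured. At an adjusted p under 0.1, 0 of 38 were higher, against 0.851% of all genes, and 0 of 38 lower, against 1.58%. The 8 past the unadjusted threshold were the beta subunits Psmb2, Psmb6 and Psmb7, the lid subunits Psmd8, Psmd12 and Psmd13, the chaperone Psmd9 and the alternative cap Psme3.

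The differences were small. The log2 fold changes of the 38 genes ran between -0.13 for Psmd6 and 0.33 for Psmd8, with a median of 0.08, beside a median of 0.02 over all genes tested. On a linear scale the smallest ratio was 0.917 and the largest 1.25. The median size of the change, without its sign, was 0.088 for the 38 genes, against 0.165 for all genes and 0.132 for the 8867 genes with a signal above the median gene's, where all 38 lay. The 95% interval of the ratio lay within 1.5-fold in either direction for 38 of 38 genes, against 59.3% of all genes and 85.5% of those brighter genes, and the widest bounds were 0.779 for Psmd11 and 1.48 for Psmd9. A change of 1.5-fold therefore lay outside the interval of the representative probe of every proteasome gene tested, each interval taken alone. Intervals of some other tested probes passed 1.5-fold, which is 0.585 on the log2 scale. Examples were -0.21 to 0.63 for a Psmb2 probe and -0.11 to 1.11 for a Psmc2 probe. RNA on an array comes from all cells of the culture, so fewer cells that express a gene and less of its RNA per cell cannot be told apart.

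**Figure D1:**
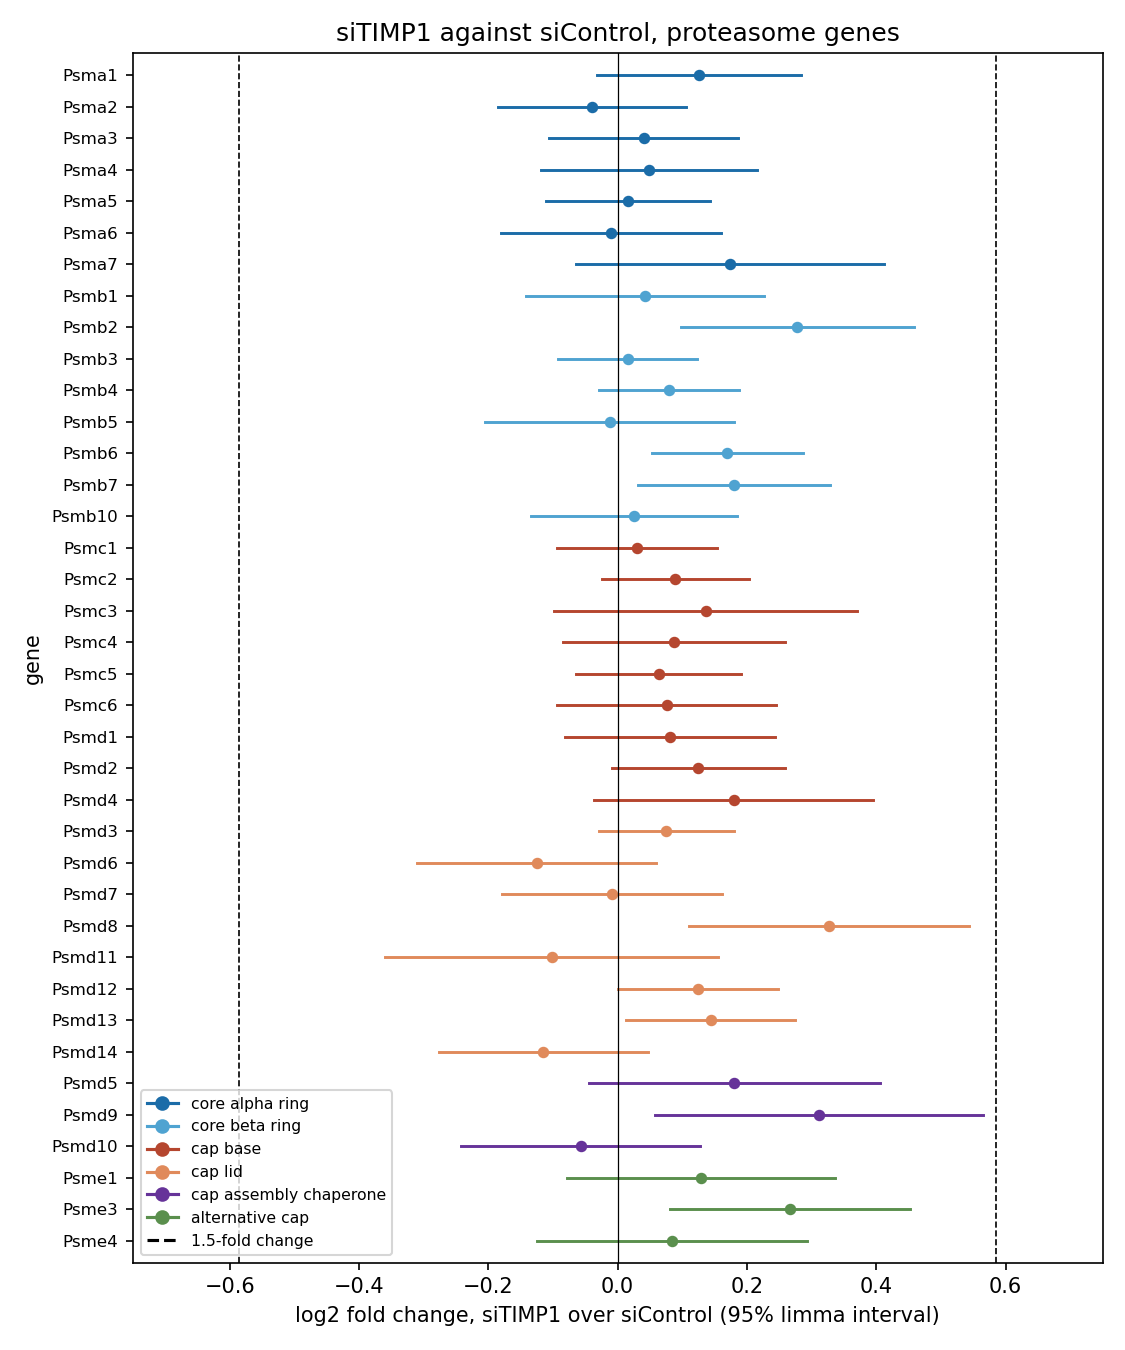
Log2 fold change of each of the 38 proteasome genes, siTIMP1 over siControl (x axis), with its 95% limma interval as a line, genes down the page and coloured by role. The dashed lines mark a 1.5-fold change, and no interval reaches them.

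More genes lay above 0 than below it, without any call. The fold change was above 0 for 30 of 38 genes (78.9%), against 54% of all genes. Over the brighter genes the share above 0 was 66.1% and the median 0.07, and over the dimmer genes the share was 41.8%. The share also moved with the scaling, to 24 of 38 with quantile normalization (51.2% of all genes) and 25 of 38 with the 75th percentile taken over detected probes (47.0% of all genes). Both siTIMP1 values lay above both siControl values for 19 of 38 genes, against 31% of all genes and 42.6% of the brighter genes. Both lay below for 2 of 38, Psmd14 and Psmd6, against 23% of all genes and 17.1% of the brighter genes.

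**Figure D2:**
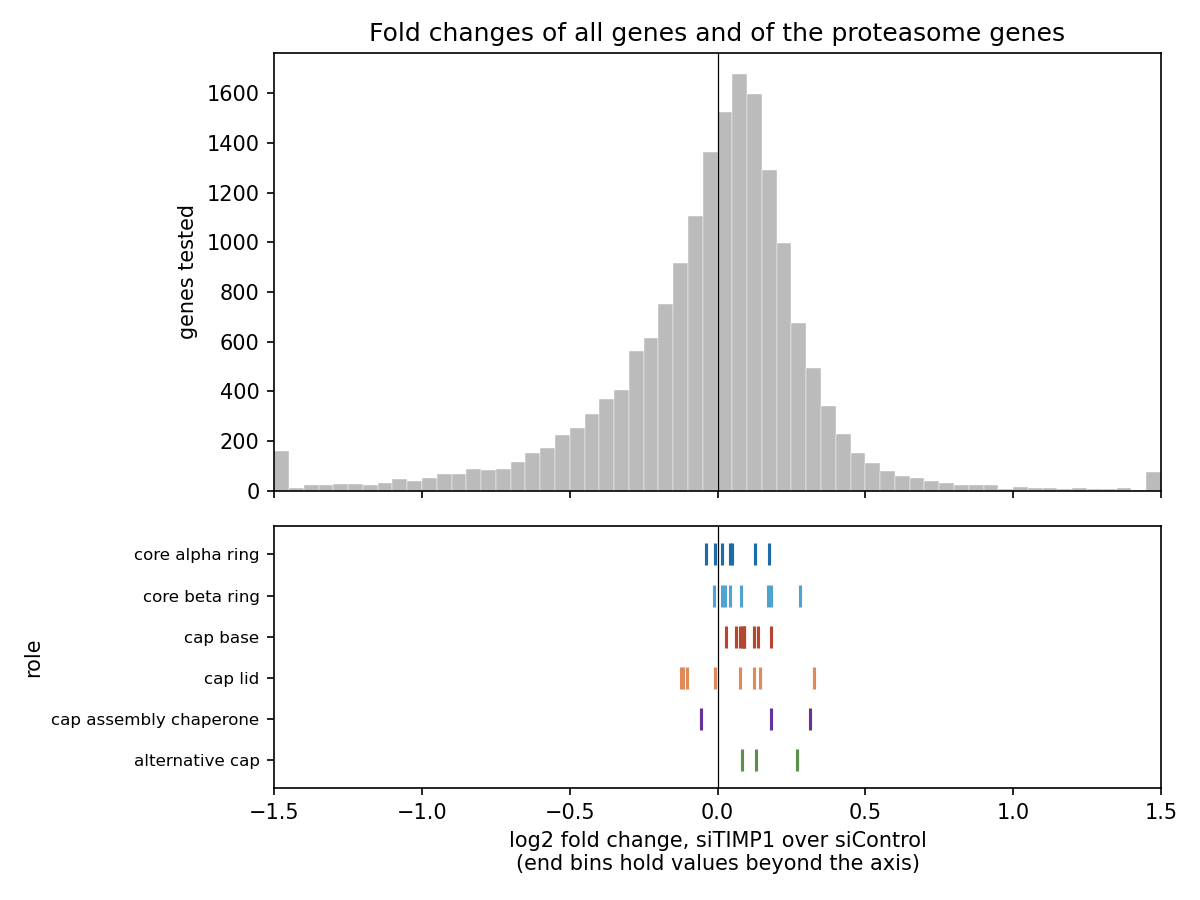
Histogram of the log2 fold changes of all 17734 genes tested (upper panel, number of genes per bin) above the proteasome genes by role (lower panel, 1 tick a gene), siTIMP1 over siControl on the same x axis. The proteasome genes lie between -0.13 and 0.33, within the central part of the histogram.

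The siTIMP1 arrays lay closer to each other than the siControl arrays did. The median difference between the replicates, without its sign, was 0.039 in siTIMP1 and 0.093 in siControl for the proteasome genes, and 0.106 in siTIMP1 and 0.139 in siControl for all genes. The siControl replicates differed in 1 direction for most of the set. In siControl, replicate 1 was below replicate 2 for 27 of 38 proteasome genes (71.1%), beside 52.5% of all genes, and for 8 of 8 lid genes. In siTIMP1, replicate 1 was below replicate 2 for 20 of 38. The fold change was above 0 for 26 of 38 genes without siControl replicate 1 and for 33 of 38 without siControl replicate 2.

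**Figure D3:**
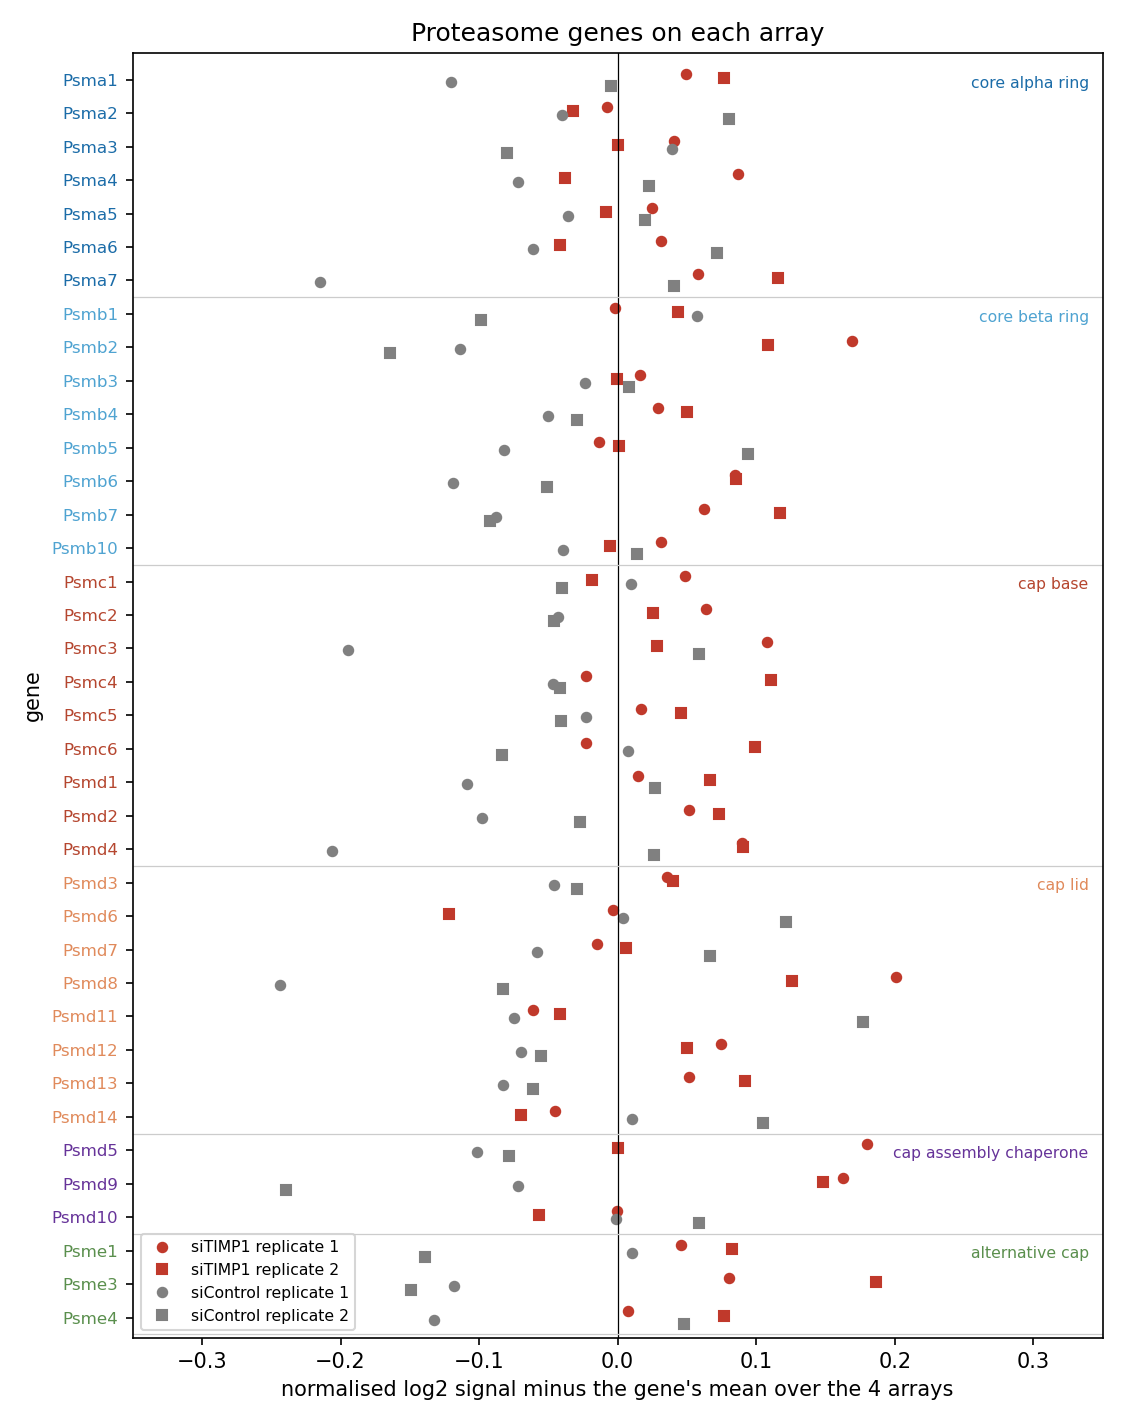
Normalised log2 signal of each proteasome gene on each of the 4 arrays, minus the gene's mean over the arrays (x axis), genes down the page by role, red for siTIMP1 and grey for siControl. The siControl points of 1 gene are often farther apart than its siTIMP1 points, and siControl replicate 1 is the lower of the siControl pair for 27 of 38 genes.

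The alpha ring, which gates the barrel, comprised 7 tested genes with a median log2 fold change of 0.04, and 5 of 7 were above 0. With quantile normalization the alpha median was -0.013. Psma7 had a signal of 6.27 and 6.33 on the siTIMP1 arrays, against 5.99 and 6.25 on the siControl arrays. The lower siControl value was that of replicate 1, the groups did not overlap, and the log2 fold change was 0.17 (SE 0.093, 95% interval -0.06 to 0.41, adjusted p = 0.376). Psma1 had 5.19 and 5.22 on the siTIMP1 arrays, against 5.02 and 5.13 on the siControl arrays. Both siTIMP1 values were above both siControl values, and the change was 0.13 (SE 0.062, 95% interval -0.03 to 0.28, adjusted p = 0.347). Psma4 had 6.37 and 6.25 on the siTIMP1 arrays, against 6.21 and 6.31 on the siControl arrays, which overlapped, with a change of 0.05 (SE 0.065, 95% interval -0.12 to 0.22, adjusted p = 0.709). Psma3 had 6.74 and 6.70 on the siTIMP1 arrays, against 6.74 and 6.62 on the siControl arrays, and siTIMP1 replicate 1 and siControl replicate 1 were level. Its change was 0.04 (SE 0.057, 95% interval -0.11 to 0.19, adjusted p = 0.724). Psma6 had 5.68 and 5.60 on the siTIMP1 arrays, against 5.58 and 5.72 on the siControl arrays. The siControl values stood on either side of both siTIMP1 values, and the change was -0.01 (SE 0.067, 95% interval -0.18 to 0.16, adjusted p = 0.944). Its other probe had both siTIMP1 values above both siControl values and a change of 0.15 (SE 0.061, adjusted p = 0.292). The other alpha subunits, Psma2 and Psma5, had overlapping groups and changes of -0.04 and 0.02.

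The beta ring holds the proteolytic sites, and its median log2 fold change was 0.06 over 8 genes, with 7 of 8 above 0. It was 0.013 with quantile normalization and 0.095 without siControl replicate 1. Of its genes past an unadjusted p of 0.05, Psmb6 and Psmb7 encode catalytic subunits and Psmb2 a structural one. Psmb2 (probe at chr4:126361456-126364299, mm9) had a signal of 2.81 and 2.75 on the siTIMP1 arrays, against 2.53 and 2.48 on the siControl arrays. The groups did not overlap, and its log2 fold change was 0.28 (SE 0.070, 95% interval 0.10 to 0.46, adjusted p = 0.162). Psmb6 (chr11:70341093-70341152, mm9), the subunit that cuts after acidic residues, had 7.00 and 7.00 on the siTIMP1 arrays, against 6.80 and 6.86 on the siControl arrays. The siTIMP1 replicates were level and both above siControl, with a change of 0.17 (SE 0.046, 95% interval 0.05 to 0.29, adjusted p = 0.176). The other Psmb6 probe gave 0.06 (SE 0.055, adjusted p = 0.596). Psmb7 (chr2:38468966-38489385, mm9), the subunit that cuts after basic residues, had 4.19 and 4.25 on the siTIMP1 arrays, against 4.04 and 4.04 on the siControl arrays. Here siTIMP1 lay above siControl without overlap, and the change was 0.18 (SE 0.058, 95% interval 0.03 to 0.33, adjusted p = 0.215).

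Psmb5, the catalytic subunit that cuts after hydrophobic residues and the main target of proteasome inhibitor drugs, had a change of -0.01 (SE 0.075, 95% interval -0.20 to 0.18, adjusted p = 0.942), with overlapping groups. Psmb4, a structural beta subunit, had 6.75 and 6.77 on the siTIMP1 arrays, against 6.67 and 6.69 on the siControl arrays. With siTIMP1 above siControl and no overlap, the change was 0.08 (SE 0.042, 95% interval -0.03 to 0.19, adjusted p = 0.372). Psmb1 and Psmb3, also structural, had overlapping groups and changes of 0.04 and 0.02. Psmb10, the inducible counterpart of Psmb7 in the immunoproteasome, overlapped as well, with a change of 0.03 (SE 0.062, 95% interval -0.13 to 0.18, adjusted p = 0.845). Over the 15 core genes the median was 0.04, with 12 of 15 above 0, and with quantile normalization that median was -0.013.

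Psmb2 had 3 tested probes, and they did not run the same way. The first 30 of the 60 bases of each are shown, since the probes differ in where they lie, and no base is marked.
Psmb2 probe at chr4:126361456-126364299: agaaaaacgtgcaactttataaaatgcgga
Psmb2 probe at chr4:126361432-126364275: ctgtacagtttgcagaatatatccagaaaa
Psmb2 probe at chr4:126362768-126362827: aaacaaaagaagggctagaaagaggctcag
In the mm9 coordinates of the array files, the first and the second span 2844 bases, so that their 60 bases cross a gap of 2784 bases, as probes across a splice junction do. The third lies inside that gap. The first is the representative probe described with the beta ring, with a change of 0.28. The second had 2.34 and 2.18 on the siTIMP1 arrays, against 1.83 and 2.27 on the siControl arrays. Its siControl replicates stood on either side of siTIMP1 replicate 2, and its change was 0.21 (SE 0.163, adjusted p = 0.514). The third, in the gap, had 0.47 and 0.39 on the siTIMP1 arrays, against 0.68 and 0.62 on the siControl arrays. Both siTIMP1 values lay below both siControl values, with a change of -0.22 (SE 0.090, adjusted p = 0.285). No probe of the 3 passed the test, and an exon annotation of mm9 was not used here.

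The base of the cap, its ATPase ring and scaffolds, had a median of 0.09, with 9 of 9 genes above 0, and with quantile normalization that median was 0.027. None of the 9 passed an unadjusted p of 0.05. Psmd4, the ubiquitin receptor, had a signal of 6.54 and 6.54 on the siTIMP1 arrays, against 6.24 and 6.47 on the siControl arrays. The siTIMP1 replicates were level, siControl replicate 1 was the lowest, and the log2 fold change was 0.18 (SE 0.084, 95% interval -0.04 to 0.40, adjusted p = 0.331). Psmd2, a scaffold that binds ubiquitin shuttles, had 5.65 and 5.67 on the siTIMP1 arrays, against 5.50 and 5.57 on the siControl arrays. Its siTIMP1 values both exceeded siControl, and the change was 0.12 (SE 0.052, 95% interval -0.01 to 0.26, adjusted p = 0.293). The other Psmd2 probe gave -0.05 (SE 0.079, adjusted p = 0.739). Psmd1, the other large scaffold, had 6.17 and 6.22 on the siTIMP1 arrays, against 6.04 and 6.18 on the siControl arrays, which overlapped, with a change of 0.08 (SE 0.063, 95% interval -0.08 to 0.24, adjusted p = 0.517).

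Among the 6 ATPases, Psmc2 had 6.45 and 6.41 on the siTIMP1 arrays, against 6.34 and 6.34 on the siControl arrays. These did not overlap, and the change was 0.09 (SE 0.044, 95% interval -0.02 to 0.20, adjusted p = 0.351). Psmc3 had 7.53 and 7.45 on the siTIMP1 arrays, against 7.23 and 7.48 on the siControl arrays. The siControl replicates spanned more than the siTIMP1 pair, the groups overlapped, and the change was 0.14 (SE 0.092, 95% interval -0.10 to 0.37, adjusted p = 0.463). Psmc4 had 4.58 and 4.71 on the siTIMP1 arrays, against 4.55 and 4.56 on the siControl arrays, without overlap, and a change of 0.09 (SE 0.067, 95% interval -0.08 to 0.26, adjusted p = 0.51). The other ATPases had changes of 0.03 for Psmc1, 0.06 for Psmc5 and 0.08 for Psmc6, and of these only Psmc5 had groups that did not overlap. With quantile normalization the median of the base and lid genes together was 0.03, against 0.08 as reported.

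The lid was the role that divided most, with 4 of 8 genes above 0 and a median of 0.03, which was -0.019 with quantile normalization. It held both the gene of largest positive change and the genes of largest negative change. Psmd8 (chr7:29961170-29962121, mm9), the subunit added last when the lid assembles in yeast, had a signal of 3.18 and 3.10 on the siTIMP1 arrays, against 2.73 and 2.89 on the siControl arrays. Both siTIMP1 values were above both siControl values, and the log2 fold change was 0.33 (SE 0.084, 95% interval 0.11 to 0.54, adjusted p = 0.168). Psmd13 (chr7:148084481-148084540, mm9), a structural subunit of the lid, had 5.24 and 5.28 on the siTIMP1 arrays, against 5.11 and 5.13 on the siControl arrays. The groups did not overlap, and the change was 0.14 (SE 0.051, 95% interval 0.01 to 0.27, adjusted p = 0.243). Psmd12 (chr11:107358963-107359022, mm9), another structural subunit, had 5.54 and 5.52 on the siTIMP1 arrays, against 5.40 and 5.41 on the siControl arrays. Again siTIMP1 was above siControl without overlap, and the change was 0.12 (SE 0.048, 95% interval 0.00 to 0.25, adjusted p = 0.269). Psmd3 had 6.89 and 6.89 on the siTIMP1 arrays, against 6.81 and 6.82 on the siControl arrays, without overlap, and a change of 0.08 (SE 0.041, 95% interval -0.03 to 0.18, adjusted p = 0.382).

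Psmd14, the deubiquitinase that removes the chain before degradation, had 4.11 and 4.08 on the siTIMP1 arrays, against 4.16 and 4.26 on the siControl arrays. Both siTIMP1 values lay below both siControl values, and the change was -0.12 (SE 0.063, 95% interval -0.28 to 0.05, adjusted p = 0.385). Psmd14 had a change of 0.02 (SE 0.078, adjusted p = 0.930) with its other tested probe. Its partner Psmd7 had 4.43 and 4.46 on the siTIMP1 arrays, against 4.39 and 4.52 on the siControl arrays, which overlapped, with a change of -0.01 (SE 0.066, 95% interval -0.18 to 0.16, adjusted p = 0.954). Psmd6 also had its siTIMP1 values below siControl, with a change of -0.13 (SE 0.072, 95% interval -0.31 to 0.06, adjusted p = 0.406). Its other probes had changes of -0.03 and -0.05, so that its 3 probes lay on the same side. Psmd11, whose overexpression is known to raise proteasome activity in stem cells, had overlapping groups and a change of -0.10 (SE 0.101, 95% interval -0.36 to 0.16, adjusted p = 0.606).

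The base chaperones had a median of 0.18 over 3 genes, with 2 of 3 above 0. That median was 0.090 without siTIMP1 replicate 1 and 0.270 without siTIMP1 replicate 2. Psmd9 (chr5:123691881-123691940, mm9) had a signal of 0.78 and 0.76 on the siTIMP1 arrays, against 0.54 and 0.37 on the siControl arrays. The groups did not overlap, and its log2 fold change was 0.31 (SE 0.099, 95% interval 0.06 to 0.56, adjusted p = 0.213). Psmd5 had 2.66 and 2.48 on the siTIMP1 arrays, against 2.38 and 2.40 on the siControl arrays. The siTIMP1 replicates were farther apart than the siControl pair, the groups did not overlap, and the change was 0.18 (SE 0.088, 95% interval -0.04 to 0.41, adjusted p = 0.344). Psmd10, also known as gankyrin and described as an oncoprotein in liver tumours, had 2.42 and 2.36 on the siTIMP1 arrays, against 2.42 and 2.48 on the siControl arrays, which overlapped. Its change was -0.06 (SE 0.072, 95% interval -0.24 to 0.13, adjusted p = 0.689).

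The alternative caps had a median of 0.13 over 3 genes, each above 0, and that median was 0.203 without siControl replicate 1. Psme3 (chr11:101184289-101184348, mm9), the nuclear activator that degrades some proteins without ubiquitin, had a signal of 2.98 and 3.09 on the siTIMP1 arrays, against 2.78 and 2.75 on the siControl arrays. Both siTIMP1 values exceeded both siControl values, and the log2 fold change was 0.27 (SE 0.073, 95% interval 0.08 to 0.45, adjusted p = 0.178). The other Psme3 probe had -0.68 and -0.70 on the siTIMP1 arrays, against -1.06 and -0.90 on the siControl arrays, also without overlap, and a change of 0.29 (SE 0.117, adjusted p = 0.279). Psme1, a subunit of the interferon-inducible activator, had 2.77 and 2.81 on the siTIMP1 arrays, against 2.73 and 2.59 on the siControl arrays, and the groups did not overlap. Its change was 0.13 (SE 0.081, 95% interval -0.08 to 0.34, adjusted p = 0.439). Psme4, a large single-chain activator, had 4.24 and 4.31 on the siTIMP1 arrays, against 4.10 and 4.28 on the siControl arrays, which overlapped, and a change of 0.08 (SE 0.082, 95% interval -0.12 to 0.29, adjusted p = 0.601). Psmc3ip, matched by its name alone, had 2.56 and 2.51 on the siTIMP1 arrays, against 2.62 and 2.57 on the siControl arrays. Its groups did not overlap, with siTIMP1 below siControl, and its change was -0.06 (SE 0.070, 95% interval -0.24 to 0.12, adjusted p = 0.646), while its other probe gave 0.13.

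Different probes of 1 gene often disagreed on a sign. Of 22 genes with more than 1 tested probe, Psmc3ip included, 12 had probes on both sides of 0, 9 had them all above and 1, Psmd6, all below. Some of the opposing probes were dim or had changes close to 0. A Psmd4 probe, with means of -3.87 in siTIMP1 and -3.82 in siControl, gave -0.05 (SE 0.456), and a Psmc4 probe gave -0.0016 (SE 0.095). How often probes disagree over all genes was not measured. Over the 70 tested probes, 50 lay above 0 and 20 below, between -0.22 and 0.50, and the lowest adjusted p of any probe was 0.160, for the second probe of Psmb4. That probe had 2.42 and 2.44 on the siTIMP1 arrays, against 2.16 and 2.15 on the siControl arrays. Both its siTIMP1 values were the higher, and its change of 0.28 (SE 0.069, adjusted p = 0.16) stood beside 0.08 for the representative probe. The probe of largest change, the second of Psmc2, had -2.37 and -2.69 on the siTIMP1 arrays, against -3.22 and -2.83 on the siControl arrays, a change of 0.50 (SE 0.238, adjusted p = 0.338). It was dim, more than 2 log2 units below the array's 75th percentile on each array. Probes assigned to curated RefSeq mRNAs made up 61 of the 70, and 18 of the 70 crossed a gap in the genome.

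**Figure D4:**
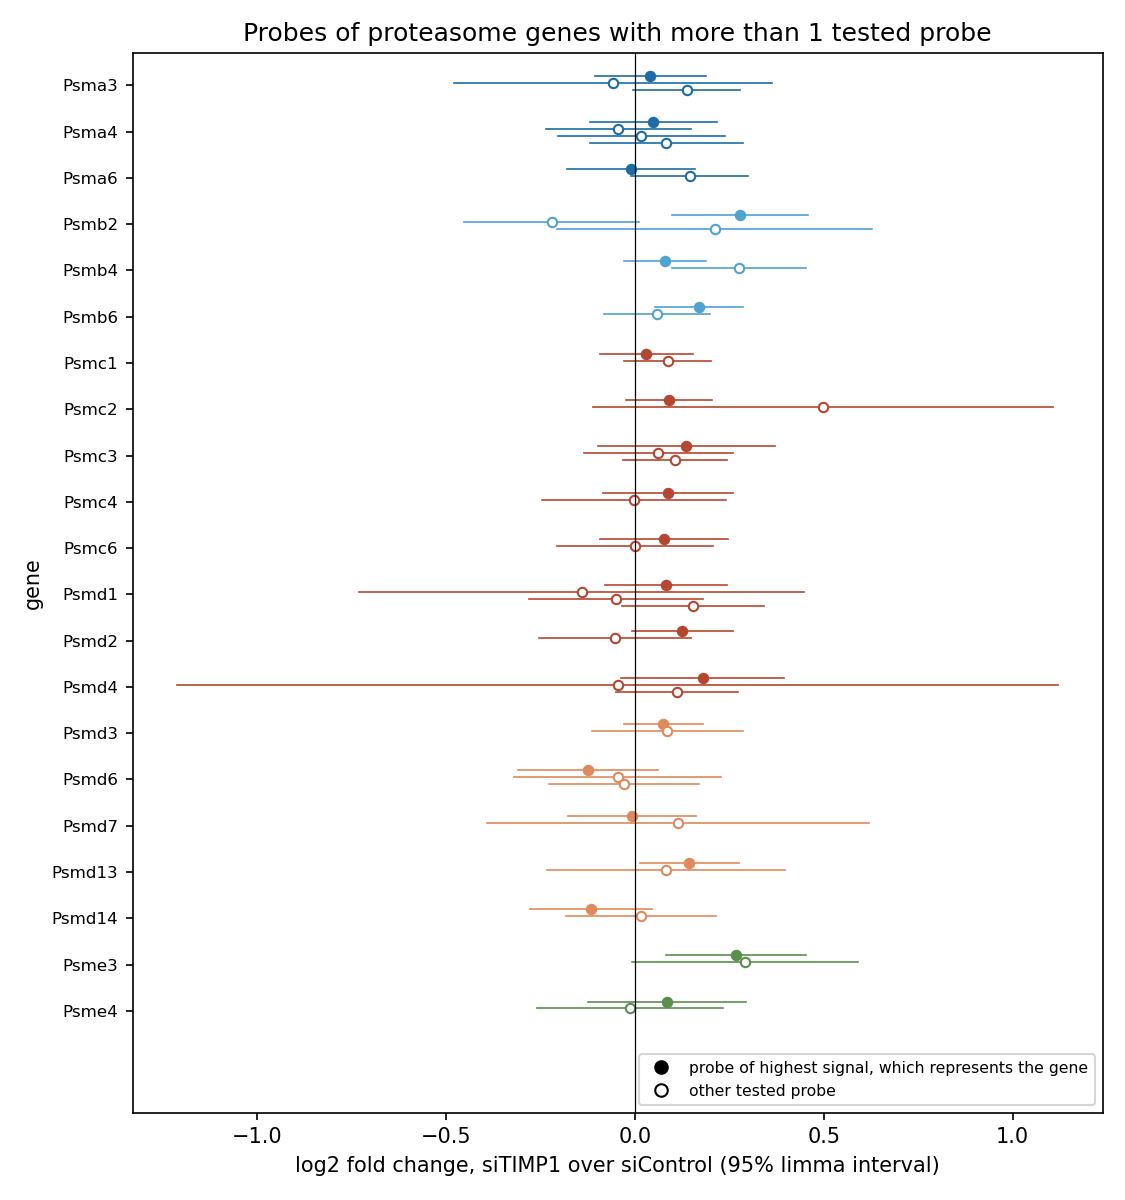
Log2 fold change, siTIMP1 over siControl (x axis), of each tested probe of the proteasome genes with more than 1, with 95% limma intervals, filled for the probe that represents the gene and open for the others. The 3 Psmb2 probes lie on both sides of 0, and most intervals cross 0.

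The genes around the proteasome, 43 listed by their known roles, held 1 call. Of 41 tested, 0 were higher and 1 was lower at an adjusted p under 0.05, beside 0.0846% higher and 0.699% lower among all genes, and their median log2 fold change was 0.06, beside 0.02. The gene was Nfe2l2, a transcription factor of the oxidative stress response. Its representative probe had 2.53 and 2.54 on the siTIMP1 arrays, against 3.13 and 3.22 on the siControl arrays. The replicates of each group lay close together, the groups did not overlap, and Nfe2l2 fell by 0.64 on the log2 scale (SE 0.071, adjusted p = 0.0422). Its other tested probe had -2.10 and -1.90 on the siTIMP1 arrays, against -2.58 and -2.94 on the siControl arrays. That probe lay on the other side of 0, at 0.76 (SE 0.201, adjusted p = 0.173), and with the mean of both probes the change was 0.06 and was not called (adjusted p = 0.779). The change of the representative probe was -0.64 without siTIMP1 replicate 1 and -0.65 without siTIMP1 replicate 2. In each case a lone siTIMP1 array was left, so calls there are not weighed.

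Nfe2l1, the factor that raises subunit transcription when proteasome activity falls short, had 4.74 and 4.62 on the siTIMP1 arrays, against 4.59 and 4.16 on the siControl arrays. The siControl replicates were far apart, and the change was 0.30 (SE 0.15, adjusted p = 0.349). Without siControl replicate 1, the change of Nfe2l1 was 0.52, with a lone siControl array left, and calls in that setting are not weighed here. Its other probe gave -0.04, with overlapping groups. The small Maf proteins, which pair with these factors on DNA, were not called. Mafk had 0.89 and 0.95 on the siTIMP1 arrays, against 0.40 and 0.40 on the siControl arrays, a change of 0.52 (SE 0.086, adjusted p = 0.0927). Mafg had 5.35 and 5.27 on the siTIMP1 arrays, against 5.67 and 5.57 on the siControl arrays, a change of -0.31 (SE 0.060, adjusted p = 0.115). Neither pair of groups overlapped. The 5 proteasome genes with the antioxidant response element had a median change of 0.12, and the 27 tested genes without it in their promoter had 0.08. The difference ran the other way for the CCAAT box, with 0.04 over 12 genes that held it and 0.08 over 20 that did not, and the medians were level for the ETS site, at 0.08 over 11 genes and 0.08 over 21. None of these differences was tested.

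The remaining sets held no call. Among core assembly chaperones Psmg1 had a change of 0.25 (SE 0.071, adjusted p = 0.182), Psmg4 of 0.19 (SE 0.145, adjusted p = 0.509) and Pomp of -0.04 (SE 0.056, adjusted p = 0.72), with a set median of 0.04 over 5 genes. Among proteins that bind the cap, the deubiquitinase Usp14 had 0.27 (SE 0.083, adjusted p = 0.203), the ubiquitin ligase Ube3c 0.25 (SE 0.102, adjusted p = 0.282) and the deubiquitinase Uchl5 0.16 (SE 0.071, adjusted p = 0.306). The Usp14 probes disagreed widely, with changes of -0.16 (SE 0.086, adjusted p = 0.367) and -2.11 (SE 0.546, adjusted p = 0.169) for the others. The probe at -2.11 was dim, with -4.08 and -5.48 on the siTIMP1 arrays, against -3.00 and -2.34 on the siControl arrays. The other Ube3c probe, also dim, gave -0.15 (SE 0.415, adjusted p = 0.868). Of the shuttles that carry ubiquitinated proteins, Ubqln1 had 0.24 (SE 0.090, adjusted p = 0.262), Ubqln4 0.16 (SE 0.139, adjusted p = 0.568) and Ddi2, the protease that activates Nfe2l1, 0.13 (SE 0.086, adjusted p = 0.445).

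In the set that supplies ubiquitin, the activating enzyme Uba6 had a change of 0.14 (SE 0.074, adjusted p = 0.366), while its other probes gave -0.03 and -0.10. Among partners of the Vcp segregase, which pulls ubiquitinated proteins out of complexes, Nploc4 had 0.28 (SE 0.077, adjusted p = 0.177), Nsfl1c -0.17 (SE 0.051, adjusted p = 0.191) and Faf2 0.15 (SE 0.079, adjusted p = 0.366). The other Nploc4 probe, which was dim, gave -0.32 (SE 0.296, adjusted p = 0.587), with siTIMP1 below siControl and no overlap. Of the genes that supply peptides to class I molecules, Tap2 had -0.31 (SE 0.079, adjusted p = 0.164), its partner Tap1 0.35 (SE 0.149, adjusted p = 0.302) and Tapbp 0.18 (SE 0.128, adjusted p = 0.483). Psmb8 was not above the filter, and Psmb9 had a change of 0.09 (SE 0.209, adjusted p = 0.841).

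**Figure D5:**
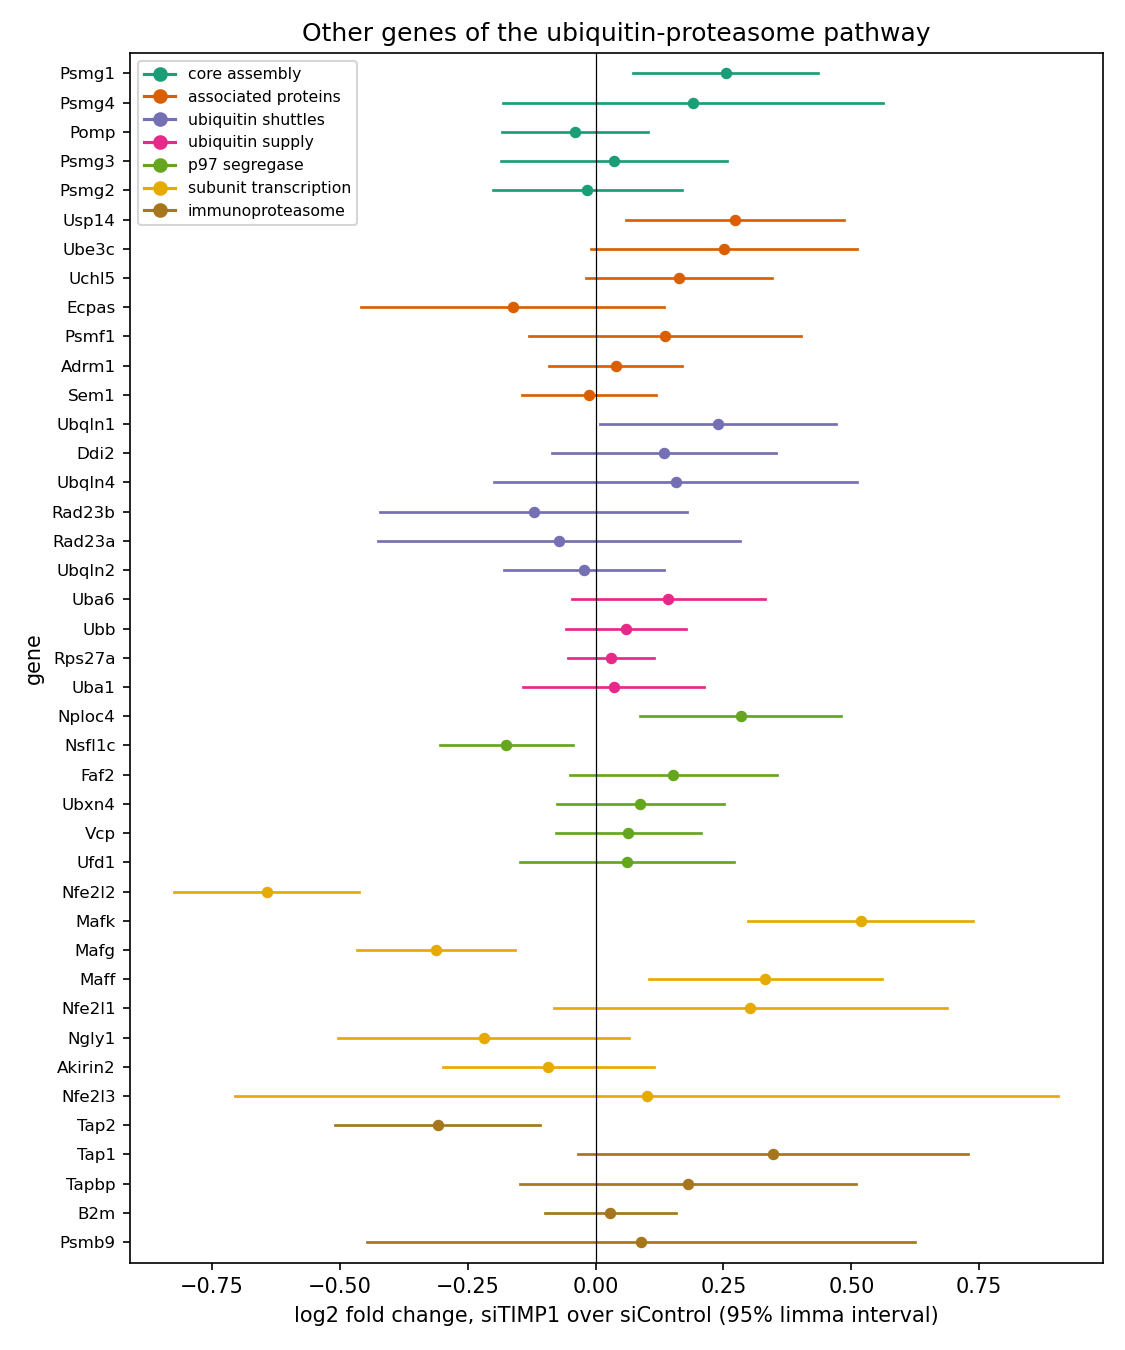
Log2 fold change, siTIMP1 over siControl (x axis), of the 41 tested genes around the proteasome, with 95% limma intervals, genes down the page and coloured by set. Nfe2l2, at -0.64, is the 1 gene that passed the test, and Mafk, at 0.52, has the highest value.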

How the data were processed

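RNA of 4 samples, 2 siTIMP1 and 2 siControl, was measured on Agilent 1-colour arrays, and each sample was grouped by its title. Replicate numbers follow accession order and only name samples. The deposited intensity of a spot is scanner output, and the submitters' processing notes name Agilent Feature Extraction 11.5.1.1. Background was subtracted and the signal detrended array by array, without scaling across arrays, per the file headers. Log2 values in the table the authors deposited followed the same signals minus 1 constant per array (6.90 to 6.96), and its column medians were -3.99 and -3.91 for siTIMP1 and -3.94 and -3.86 for siControl.

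The processed signal was divided by the 75th percentile of its array, taken without control spots, and put on the log2 scale. Controls and outlier spots (136 to 250 an array) were left out, no spot was saturated, spots of 1 probe were averaged, and 45.9% to 52.1% of spots were well above background. The test of siTIMP1 against siControl was limma 3.58.1 (R 4.3.3, lmFit and eBayes with a trend), adjusted by Benjamini-Hochberg over 26015 probes, threshold 0.05. Adjusted p-values come from this fit unless another setting is named beside them, and the number of arrays limits the precision. The fit was tested on simulated data. RefSeq accessions matched for 32994 probes and updated 1535 symbols. Figures were drawn with matplotlib 3.10.9.

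The proteasome genes, the pathway list and the markers were chosen with earlier results of these data known. Some genes of the pathway list are not reported here. Named genes are Timp1, each proteasome gene, with values per array for up to 4 of smallest p in a role and for those whose probes disagree, and in each pathway set the genes called and up to 3 of smallest p, with Nfe2l1 and Nfe2l2. Psmb9, Psmd6 and the second probes were added after their values were seen. Alternatives covered normexp background correction (offset 50), quantile normalization, the percentile over detected probes, filters, variance models, outlier spots, averaging the probes of a gene, the authors' table, thresholds and each array left out in turn. A lone array of a group is then assumed to vary like the others.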

Additional observations from a re-analysis of the deposited data

How the results depend on the processing

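The 14 alternatives changed the processing, filter or variance model, or left out an array. No proteasome gene was called higher or lower where every array was kept, and the lowest adjusted p there was 0.151, without any filter. With eBayes without a trend, 0 of all 17734 genes were called, so that setting says nothing about the members in particular. The other settings with every array called 0.0564% to 0.299% of all genes higher and 0.406% to 1.04% lower. At such low shares, 0 calls among so few members is weak evidence that they were stable. Calls with an array left out are not weighed here, since 1 group then held a lone array. At an unadjusted p under 0.05, 8 of 38 proteasome genes were higher with the reported settings, against 11.8% of all genes. At that threshold 0 of 38 were lower, against 7.98%. Of 546 values of the member genes across the 14 alternatives, 32 changed sign. The members' median of 0.08 became 0.029 after quantile normalization, 0.040 when detected probes alone set the percentile, and 0.061 when the probes of a gene were averaged. The core median of 0.04 was -0.013, 0.00077 and 0.042 under these settings, and between 0.020 without siTIMP1 replicate 1 and 0.076 without siControl replicate 2 when an array was left out. The median of base and lid was 0.027, 0.041 and 0.059, and between 0.063 and 0.097 when an array was left out. Without any filter the median of all genes was 0.14, against 0.02.

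All-probe counts depended more on the settings. The 179 probes called became 458 with no filter, 0 with eBayes without a trend, 310 with robust eBayes, 82 with probes averaged by gene and 565 at an adjusted p under 0.1, and ran between 0 and 1323 when an array was left out. Of genes, 107 were called higher and 258 lower with no filter, and 53 and 185 with robust eBayes. Timp1 kept its fold change of -5.22 without a trend but was not called (adjusted p = 0.133), and was between -5.41 and -5.04 when an array was left out, not called without siTIMP1 replicate 1 (adjusted p = 0.137) or siTIMP1 replicate 2 (adjusted p = 0.184). The 1 pathway call became 0 with normexp correction, without a trend or with probes averaged by gene, and 0 to 2 when an array was left out. It was Nfe2l2, which was -0.60 with normexp (adjusted p = 0.0648), had an adjusted p of 0.166 without a trend, and reversed to 0.06 when its probes were averaged, whose changes had opposite signs. The causes of the other changes were not tested.

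No paired analysis was possible because siTIMP1 and siControl titles carry different numbers. A slide or scan block could not be fitted, since there was 1 slide and 1 scan.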
